A study of Mus musculus with 2 samples.

Results

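Immunoglobulin constant and variable genes were the members, chosen as the genes that both gene tables hold and that GENCODE types as IG_C_gene or IG_V_gene. They numbered 223 of the 42462 gene rows matched to the annotation, with 10 constant (C) genes and 213 variable (V) genes. The V genes comprised 113 of the heavy chain locus (Ighv), 97 of the kappa locus (Igkv) and 3 of the lambda locus (Iglv). The annotation release used for gene types lists 231 such genes, and 8 of them, the lambda constant genes Iglc1, Iglc3 and Iglc4 among them, were not matched to the tables. The lambda constant region was therefore read from Iglc2 only.

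The study sequenced total RNA of erythroblasts, nucleated cells that mature into red blood cells, taken from male C57BL/6J mice that were adult (5 to 6 weeks). It holds 2 libraries of 1 group, numbered as biological replicates 1 and 2; the input was 1 ng of RNA, and control RNA was spiked in. The cells were primary cells, and the labels name no treatment or engineered allele. Both libraries carry the same donor entry in the labels, so separate animals cannot be assumed. A single group allows no comparison of conditions and no p-value; values are replicate 1 and replicate 2, or the mean ± SD of n = 2 libraries.

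An antibody is built of heavy and light chains. A B cell joins a V segment to D and J segments at the heavy locus, and V to J at kappa or lambda, and the joined exon is then spliced to a constant region. The heavy constant gene sets the isotype, and a switch of isotype moves the same V region onto a constant gene further along the chromosome. Heavy chain RNA ends either with exons for a membrane anchor, as in the B cell receptor, or with a secreted tail, as in the antibody that plasma cells release. In the mouse most light chains are kappa, and plasma cells live in bone marrow beside the erythroid cells.

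The libraries held 80806663 and 117032607 expected counts (estimated reads per gene), of which nuclear protein-coding genes took 5.44% and 5.82%. All 10 erythroblast markers, from the globin genes to Klf1, reached 1 TPM (the deposited level, scaled by transcript length and library) or more in both libraries. The markers given for the members, Ighm and Igkc, did so too. Other blood lineages also had RNA here: 8 of 8 neutrophil genes reached 1 TPM in both libraries, against 14.6% of protein-coding genes. They summed to 2006 and 2310.4 TPM. The part of any other cell type in the immunoglobulin values was not tested. In such bulk RNA, fewer cells of a type and less RNA per cell cannot be told apart.

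Immunoglobulin genes summed to 212 TPM in replicate 1 and 242 TPM in replicate 2, from 5570 and 8343 expected counts. That level equals 0.454% and 0.474% of the summed TPM of nuclear protein-coding genes, and 1.04% and 1.09% of that of the adult globin genes. V genes summed to 98.1 and 109.0 TPM (104 ± 7.74), and C genes to 114 and 133 TPM (124 ± 13.0). Of all TPM, mitochondrial rRNA took 78.3% and 78.5%, and nuclear protein-coding genes took 4.68% and 5.10%. A limit set in TPM is thus stricter here than on a scale of nuclear protein-coding genes alone. Detection required at least 1 TPM in both libraries, and 29 of the 223 members reached it. That is 13.0% of the members, against 8.12% of all genes and 14.6% of protein-coding genes. By reads, 36 members (16.1%) held at least 10 expected counts in both libraries, against 23.4% of all genes. A total of 154 members had 0 counts in both libraries, and the median member, like the median of all genes, stood at 0 TPM.

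By TPM kappa stood above the other loci, whereas in counts Igkc, with 1017 and 1741, was below the heavy constant genes, with 2947 and 4323. Igkc, the single kappa constant gene (ENSMUSG00000076609, plus strand of chromosome 6), stood at 74.9 and 95.0 TPM. It ranked 75 among all genes by mean TPM, with a row of 323 bases that is 532 bases in the annotation used for gene types. Iglc2, a lambda constant gene on chromosome 16 (ENSMUSG00000076937), stood at 2.83 and 0.85 TPM, from 96 and 41 counts. Kappa thus took 96.4% and 99.1% of light constant TPM, here Igkc plus Iglc2 only (97.7 ± 1.95%). Iglc1, Iglc3 and Iglc4 were not matched, so any reads of theirs are missing from this share. In counts kappa took 91.4% in replicate 1 (exact binomial 95% interval 89.6 to 93.0%) and 97.7% in replicate 2 (96.9 to 98.3%). V genes gave a like picture by TPM: kappa took 95.3% and 97.0% of light V TPM, and lambda took 4.68% and 2.99%. Intervals and limits of counts cover counting error only, since without molecular identifiers a read is not an independent molecule.

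**Figure D1:**
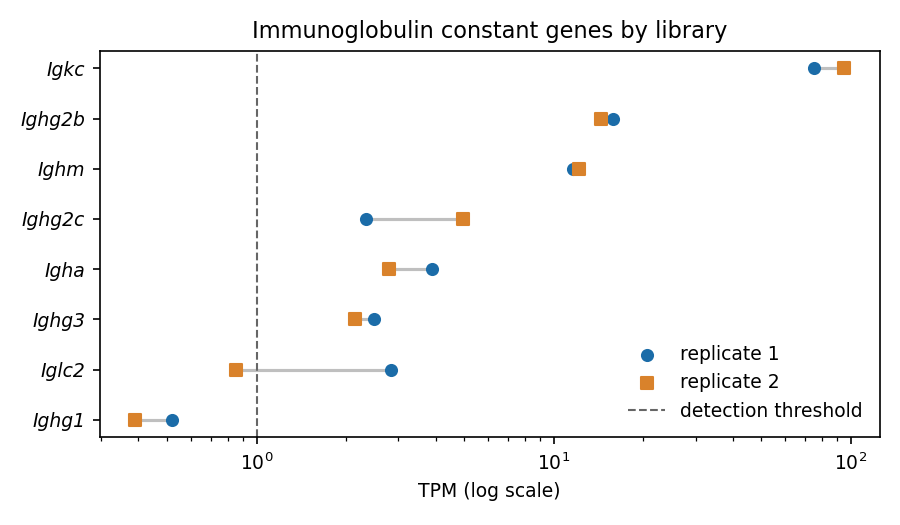
TPM of the 8 constant genes with more than 1 count, on a log axis, with circles for replicate 1, squares for replicate 2 and a dashed line at the detection threshold of 1 TPM. Igkc lies at 74.9 and 95.0 TPM, Ighg2b and Ighm follow, and Ighg2c and Iglc2 show the widest gaps between the libraries.

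The heavy constant genes lie in a row on the minus strand of chromosome 12, with Ighm and Ighd next to the joining segments and Igha at the far end. They summed to 36.6 and 36.8 TPM (36.7 ± 0.148). Ighg2b (ENSMUSG00000076613), which encodes the heavy chain of IgG2b, led them at 15.8 and 14.4 TPM from 1115 and 1467 counts. Ighm (ENSMUSG00000076617), the heavy chain of IgM and the first isotype a B cell makes, followed at 11.6 and 12.2 TPM from 1194 and 1820 counts. The 2 genes did not overlap between libraries, and Ighg2b over Ighm was 1.37 and 1.18 by TPM. In counts, which carry no length correction, Ighm was the higher of the 2 genes; its row is longer.

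Below them the order was not settled. Ighg2c, the IgG2c gene that C57BL/6 mice carry in place of Ighg2a, stood at 2.33 and 4.96 TPM from 164 and 505 counts. Igha, the heavy chain of IgA, stood at 3.89 and 2.78 TPM from 270 and 280 counts. Ighg3, the IgG3 gene, stood at 2.48 and 2.15 TPM from 169 and 212 counts. The ranges of Ighg2c and Igha overlapped, as did those of Ighg2c and Ighg3, while Igha was above Ighg3 in both libraries. Ighg1 (IgG1) was lower than all of these, at 0.52 and 0.39 TPM from 35 and 38 counts. Ighd, the IgD gene that naive B cells express together with Ighm, had 0 and 1 counts. Ighe, the IgE gene, had 0 counts in either library; by the upper bounds of the exact two-sided 95% interval, that allows 0.125% and 0.0853% of heavy constant counts.

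As shares of heavy constant TPM, the 4 Ighg genes together took 57.8% and 59.4% (58.6 ± 1.15%), Ighm took 31.6% and 33.0% (32.3 ± 1.01%) and Igha took 10.6% and 7.55% (9.09 ± 2.17%). Within the Ighg genes, Ighg2b took 74.8% and 65.7%, Ighg2c took 11.0% and 22.7%, Ighg3 took 11.7% and 9.83%, and Ighg1 took 2.46% and 1.78%. In counts, Ighg2b was 75.2% of Ighg in replicate 1 (interval 72.9 to 77.4%) and 66.0% in replicate 2 (64.0 to 68.0%), and these intervals did not overlap. The Ighg genes are close paralogs. None of the 10 constant genes had reads shared out with another row, since all their counts were whole within 0.01 and the deposited posterior SD of each count was 0.

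The transcript tables separate the secreted from the membrane form of the heavy chain. The ends of the Ighm and Igha coding sequences are shown because the forms differ only there. Lower case marks 30 bases common to both forms and capitals mark the coding bases of that form alone, stop codon included, on the minus strand of mm10 and read from the GENCODE M21 transcripts.
Ighm secreted: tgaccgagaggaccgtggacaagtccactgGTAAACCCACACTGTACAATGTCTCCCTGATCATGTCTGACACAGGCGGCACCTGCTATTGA
Ighm membrane: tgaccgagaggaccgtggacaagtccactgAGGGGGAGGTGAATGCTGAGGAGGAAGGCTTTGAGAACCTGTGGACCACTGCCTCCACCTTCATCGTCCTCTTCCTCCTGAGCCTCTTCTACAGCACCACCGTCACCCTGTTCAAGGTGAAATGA
Igha secreted: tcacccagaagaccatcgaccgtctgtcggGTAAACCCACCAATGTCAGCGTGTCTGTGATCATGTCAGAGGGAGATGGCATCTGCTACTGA
Igha membrane: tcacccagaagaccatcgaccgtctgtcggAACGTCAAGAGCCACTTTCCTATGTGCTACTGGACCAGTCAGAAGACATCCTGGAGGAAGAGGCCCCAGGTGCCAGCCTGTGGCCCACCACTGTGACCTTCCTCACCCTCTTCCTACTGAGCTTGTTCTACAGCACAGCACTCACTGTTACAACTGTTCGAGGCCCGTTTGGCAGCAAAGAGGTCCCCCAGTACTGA

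The secreted tail of Ighm lies at chr12:113420867-113420928 and that of Igha at chr12:113258768-113258829, each running straight on from the shared exon. Both tails are 62 bases long and match at 43 positions (69.4%). Each has a cysteine codon just before its last coding codon. That cysteine is known to bond with the J chain, which joins IgM and IgA into polymers. The membrane-only coding bases of Ighm number 125 and those of Igha number 197, and they lie further along the strand, within chr12:113418826-113419068 over 2 exons for Ighm and at chr12:113256201-113256397 for Igha.

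The secreted form led wherever the tables hold both forms and counts were present, apart from the single count of Ighd. For Ighm, the secreted transcript stood at 7.40 and 8.09 TPM and the membrane transcript at 4.19 and 4.08 TPM. The secreted form thus took 63.8% and 66.5% of Ighm TPM (65.2 ± 1.86%). Both Ighm transcripts share most of their length, and the split carried a deposited posterior SD of 42.3 and 68.6 counts. All 270 and 280 counts of Igha were assigned to its secreted transcript, as were all those of Ighg1, Ighg2b and Ighg2c. The membrane transcripts of these 4 genes had 0 expected counts in both libraries. Those are estimates of a split too, so a membrane share above 0 was not excluded. The deposited posterior SD of the split was 6.98 and 4.11 counts for Ighg2c and 2.96 and 1.49 for Ighg1. It was 1.69 and 1.24 counts for Igha and 0.98 and 0.85 for Ighg2b. Ighg3 had 1 transcript in the tables, so its forms could not be separated. The single count of Ighd, in replicate 2, was assigned to the membrane transcript.

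By TPM, light chain exceeded heavy chain. Light constant genes summed to 77.7 and 95.9 TPM and heavy constant genes to 36.6 and 36.8 TPM, a log2 ratio of 1.09 and 1.38 (1.23 ± 0.209). The direction rests on the length correction: by expected counts the log2 ratio was -1.34 ± 0.0893, and by counts per annotated length it was 0.58 ± 0.125. The Igkc row of the tables is 323 bases long, with effective lengths of 189 and 173 bases once fragment size is allowed for, whereas the later annotation gives the same transcript 532 bases. Light V genes likewise exceeded heavy V genes, at 76.9 and 89.7 TPM against 21.2 and 19.3 TPM. That ratio was 3.63 and 4.64 by TPM, and in counts light V genes were again the higher, at 1163 and 1842 against 347 and 396.

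Each locus was also read at both ends. Kappa V genes summed to 73.3 and 87.0 TPM and Igkc to 74.9 and 95.0 TPM, a ratio of 0.979 and 0.916. The mean log2 ratio of -0.08 ± 0.07 changed sign by expected counts (0.08) and by posterior mean TPM (0.02), so kappa V and Igkc levels were not separated. Heavy V genes summed to 21.2 and 19.3 TPM and heavy constant genes to 36.6 and 36.8 TPM, a ratio of 0.578 and 0.525. Here the log2 ratio of -0.86 ± 0.10 moved to -0.16 ± 0.43 by posterior mean TPM, with 0.15 in replicate 1 and -0.46 in replicate 2, and to -1.44 by counts per annotated length. The posterior value of replicate 1 leans on 1 row without counts. Ighv1-62-1 gave 9.12 of the 40.1 posterior mean TPM of heavy V genes there, and 0.05 TPM in replicate 2. Lambda V genes summed to 3.60 and 2.68 TPM and Iglc2 to 2.83 and 0.85 TPM, a ratio of 1.27 and 3.15. In mice Iglv1 is mostly joined to Iglc1, a gene not analysed here.

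**Figure D2:**
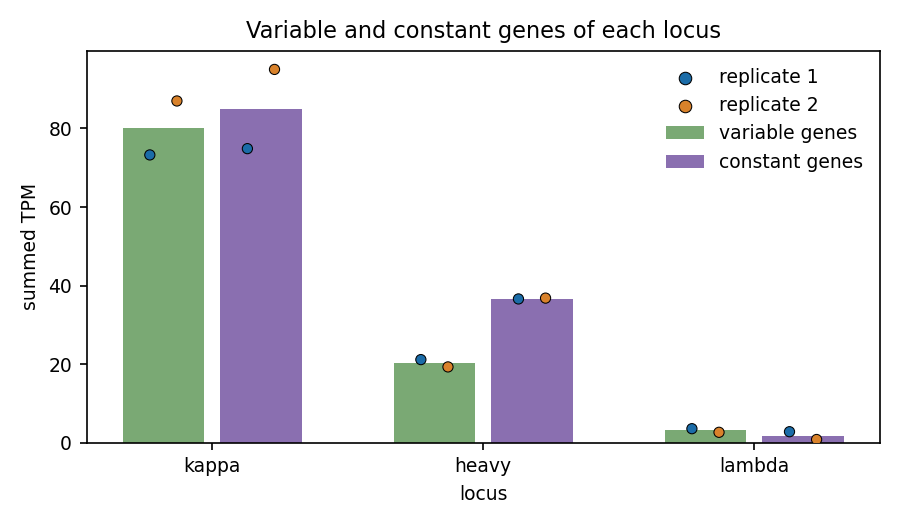
Summed TPM of the variable genes (left bar) and the constant genes (right bar) of each locus; bars are means of the libraries and start at 0, and points are the libraries. Kappa V genes (73.3 and 87.0 TPM) and Igkc (74.9 and 95.0 TPM) lie close, while heavy V genes (21.2 and 19.3 TPM) lie below heavy constant genes (36.6 and 36.8 TPM).

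Of the 213 V genes, 60 had a count in either library and 43 in both, while 153 (71.8%) had 0 counts in both, against 63.2% of all genes. The detection rule was met by 23 (10.8%, against 8.12% of all genes): 19 of 97 kappa, 3 of 113 heavy and 1 of 3 lambda V genes. Kappa took 74.7% and 79.8% of V TPM (77.3 ± 3.60%), heavy 21.6% and 17.7% (19.7 ± 2.74%) and lambda 3.67% and 2.46%. The 10 V genes with the highest mean TPM, all of them kappa genes, held 46.9% and 53.5% of V TPM (50.2 ± 4.65%). As an inverse Simpson index, the number of equally used genes that would give the same concentration, kappa usage came to 15.9 and 14.8 genes and heavy usage to 13.4 and 10.3 genes.

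The ends of 7 V genes are shown: the highest of their locus by mean TPM, and Ighv11-2 for its ratio between the libraries. Such an end leads into the CDR3 loop, which contacts antigen. Each is the last 90 bases of the germline transcript in GENCODE M21, and capitals mark the codon of the conserved cysteine that ends framework region 3. The rows of the tables are such germline segments, so bases added at the joints are not part of them.
Igkv14-126: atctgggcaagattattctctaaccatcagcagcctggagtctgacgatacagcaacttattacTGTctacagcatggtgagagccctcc
Igkv12-46: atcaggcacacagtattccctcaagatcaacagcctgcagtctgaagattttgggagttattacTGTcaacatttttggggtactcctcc
Igkv5-39: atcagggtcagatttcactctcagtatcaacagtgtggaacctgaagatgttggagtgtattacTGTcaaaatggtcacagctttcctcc
Ighv9-1: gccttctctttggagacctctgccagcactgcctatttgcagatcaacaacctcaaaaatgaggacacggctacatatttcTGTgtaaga
Ighv1-64: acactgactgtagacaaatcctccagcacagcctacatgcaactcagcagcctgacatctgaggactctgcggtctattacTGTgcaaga
Ighv11-2: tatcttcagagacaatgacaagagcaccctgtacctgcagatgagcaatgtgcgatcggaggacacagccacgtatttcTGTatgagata
Iglv1: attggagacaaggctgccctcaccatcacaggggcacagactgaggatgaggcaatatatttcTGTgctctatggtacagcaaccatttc

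On mm10 these stretches lie at chr6:67896553-67896642 on the plus strand for Igkv14-126, and on the minus strand at chr6:69764523-69764612 for Igkv12-46 and chr6:69900424-69900513 for Igkv5-39. Those of the heavy genes lie on the minus strand, at chr12:114093928-114094017 for Ighv9-1, chr12:115507545-115507634 for Ighv1-64 and chr12:114048241-114048330 for Ighv11-2. That of Iglv1 lies at chr16:19085017-19085106 on the minus strand.

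Igkv14-126 was the highest V gene in both libraries, at 9.73 and 12.2 TPM from 153 and 262 counts, and held 13.3% and 14.0% of kappa V TPM. Igkv12-46 stood at 8.30 and 6.14 TPM from 127 and 128 counts. Igkv5-39 stood at 4.81 and 9.46 TPM from 53 and 138 counts. These ranges of Igkv12-46 and Igkv5-39 overlapped, so only the first place held in both libraries. Next by mean came Igkv15-103, the single member of its family, at 4.31 and 4.75 TPM, and Igkv6-17 at 4.84 and 3.12 TPM. The other 5 of the 10 highest, Igkv8-21, Igkv12-41, Igkv6-32, Igkv9-120 and Igkv5-43, had mean TPM of 3.63 to 3.68. The order of these genes differed between the libraries and was not settled. Igkv5-43, at 5.10 TPM, was above Igkv15-103 in replicate 1, as were Igkv8-21 and Igkv6-32, both at 5.76 TPM, in replicate 2. Of the 10 highest kappa V genes of each library, 5 were in both lists.

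The locus was led by 4 kappa families of about equal level. The Igkv12 family summed to 13.1 and 15.1 TPM, Igkv6 to 12.8 and 15.1, Igkv5 to 13.0 and 13.2, and Igkv14 to 12.9 and 13.0 TPM. The Igkv4 family, with 26 members the largest (26.8% of kappa V genes), took 8.94% and 5.76% of kappa V TPM. The 9 Igkv3 genes had 0 counts in both libraries, as did 72.2% of all kappa V genes. Kappa V genes on the minus strand, which join Igkc by inversion of the DNA between, took 60.1% and 61.1% of kappa V TPM and are 61 of the 97 genes (62.9%).

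Heavy V genes were lower one by one. Ighv9-1 stood at 2.06 and 3.00 TPM from 30 and 46 counts, Ighv1-64 at 2.18 and 2.87 TPM from 34 and 61 counts, and Ighv1-82 at 1.13 and 1.44 TPM from 13 and 22 counts. These were the 3 heavy V genes detected in both libraries. The others of the 10 highest by mean, Ighv1-54, Ighv11-2, Ighv3-6, Ighv2-9, Ighv9-3, Ighv1-26 and Ighv1-69, fell under 1 TPM in at least 1 library. The Ighv1 family, with 53 members the largest of the locus (46.9% of its V genes), took 39.8% and 62.6% of heavy V TPM. Ighv9 followed with 16.4% and 17.7%. No count fell on 8 of the 16 heavy families, Ighv7 and Ighv14 among them. These families have at most 4 members each, and 72.6% of all heavy V genes had 0 counts in both libraries.

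Of the lambda V genes, Iglv1 stood at 3.32 and 2.68 TPM from 51.8 and 57 counts. Iglv2 had 4.23 and 0 counts, and Iglv3 had 0 in both libraries. Iglv1 and Iglv2 are 97.2% identical over their last 250 bases, and their counts in replicate 1 were not whole, so reads were shared out between rows. V genes resemble each other in general: the nearest other V gene of the same locus matched at a median of 94.8% over those bases. Of the 60 V genes with counts, 41 had a posterior SD of 0 in both libraries, and 8 had a count that was not whole within 0.01. The largest posterior SD of a V gene's count was 2.33, for Igkv5-43.

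**Figure D3:**
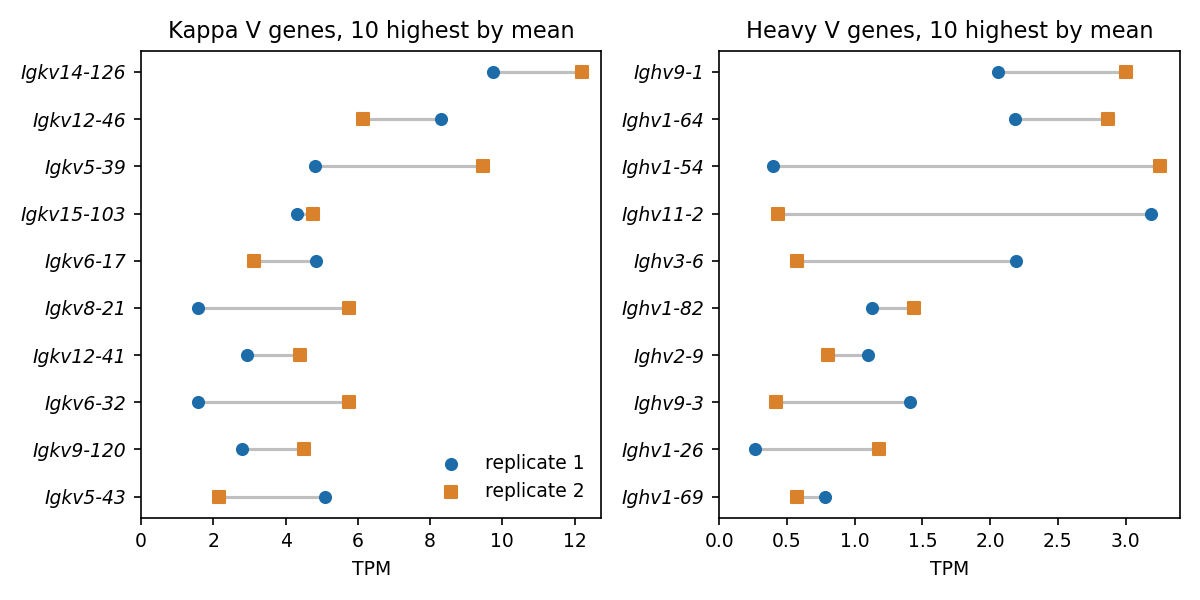
TPM of the 10 kappa V genes (left) and the 10 heavy V genes (right) with the highest mean, with circles for replicate 1 and squares for replicate 2; the axes differ in range. Igkv14-126 is highest in both libraries, whereas Ighv1-54 and Ighv11-2 are high in 1 library each.

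The summed immunoglobulin counts were close in the 2 libraries. After TMM scaling, which equalises the bulk of genes, the log2 ratio of replicate 2 to replicate 1 was -0.06 (exact binomial 95% interval -0.11 to -0.01), against a median of 0.02 over the 9958 genes with a mean of at least 20 counts. The sign turned with the scaling, at 0.05 by library total and 0.19 by deposited TPM. Igkc differed by 1.09 times (interval 1.01 to 1.18) and Ighm by 0.974 times (0.905 to 1.05). Among the 8 constant genes with a mean of at least 20 counts, Iglc2 was over 2 times apart after TMM scaling, 3.66 times higher in replicate 1 (2.52 to 5.42). Ighg2c was 1.97 times higher in replicate 2 (1.65 to 2.36), and by deposited TPM, at 2.33 and 4.96, it too was over 2 times apart.

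Single V genes differed more. Of the 26 V genes with a mean of at least 20 counts, 10 (38.5%) were over 2 times apart, 5 in each direction. Over all genes with such a mean the share was 21.7%, with 11.8% past that ratio towards replicate 2 and 9.89% towards replicate 1. Among the 6325 genes whose mean counts lay in the range of these V genes it was 32.6%, and the median absolute log2 ratio was 0.68 for the V genes and 0.65 for those genes. The V genes were thus near the background of genes with like counts.

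The genes at the ends of that range were as follows. Ighv11-2 had 75 counts (3.19 TPM) in replicate 1 and 14 counts (0.43 TPM) in replicate 2, and was 8.38 times higher in replicate 1 (interval 4.70 to 16.1). Its share of heavy V TPM was 15.1% and 2.23%. Ighv11-2 is 99.2% identical to Ighv11-1 over the last 250 bases, and its counts were whole, with a posterior SD of 0.53 and 0.55 in both rows; Ighv11-1 had 0 counts. With Igkv14-126 it is known to encode phosphatidylcholine-binding antibodies of B-1a cells in the mouse; which chains were paired cannot be read from bulk tables. Igkv14-111 had 50 and 16 counts, and was 4.89 times higher in replicate 1 (2.74 to 9.20), and Ighv3-6 had 34 and 12 counts, 4.43 times higher there (2.24 to 9.41).

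In the other direction, Ighv1-54 had 7 counts (0.40 TPM) in replicate 1 and 78 counts (3.25 TPM) in replicate 2, and was 7.12 times higher in replicate 2 (interval 3.30 to 18.3). Igkv6-32 had 24 and 120 counts, 3.19 times higher in replicate 2 (2.05 to 5.18), and Igkv8-21 had 26 and 129 counts, 3.17 times higher (2.07 to 5.04). In each of these 6 genes the interval of counting error left out a ratio of 1, given as a description since the genes were picked by their ratio. A further 4 V genes had at least 10 counts in 1 library and 0 in the other. With its 0 set to 3 counts, taken as the limit of a 0, Ighv5-6 (19 and 0 counts) was 9.91 times higher in replicate 1. By the same rule Igkv2-137 (0 and 20 counts) was 4.26 times higher in replicate 2. These ratios leave out the counting error of the other count, so they are not lower bounds, and the genes were picked for their 0. Ighv1-53 had 17 and 0 counts, and Ighv1-36 had 0 and 14 counts.

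Across the 31 heavy V genes with a count in either library, Pearson's r of log2(TPM + 0.1) between the libraries was 0.314 and Spearman's rho 0.302. Across the 27 such kappa V genes these were 0.682 and 0.566. These are descriptions across genes, which are not independent replicates, and many of the heavy genes rest on few counts.

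**Figure D4:**
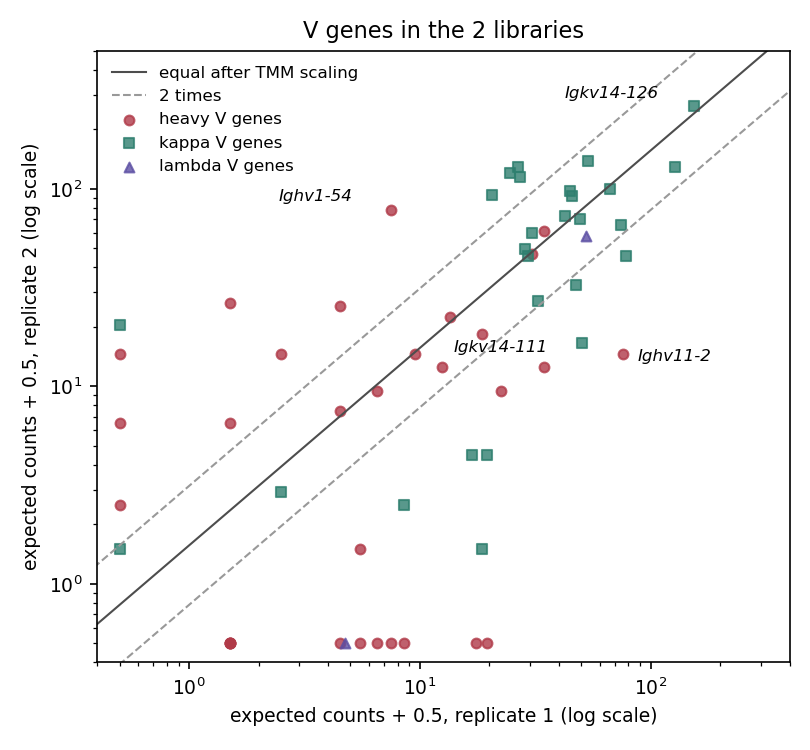
Expected counts plus 0.5 of the 60 V genes with a count in either library, replicate 1 on the horizontal and replicate 2 on the vertical log axis, with the line of equal TMM-scaled counts and lines at 2 times. Igkv14-126 (153 and 262 counts) lies near the line, while Ighv11-2 (75 and 14) and Igkv14-111 (50 and 16) lie far below it and Ighv1-54 (7 and 78) far above it; 7 of 20 kappa and 3 of 5 heavy V genes with a mean of at least 20 counts were over 2 times apart.

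Plasma cell genes were present unevenly. Jchain, the joining chain of IgM and IgA polymers (chromosome 5), stood at 3.78 and 3.83 TPM from 341 and 505 counts, which is 0.244 and 0.256 of the summed TPM of Ighm and Igha. Mzb1, an endoplasmic reticulum protein of marginal zone B and plasma cells, had 0 counts in either library; 3 counts, the limit that a 0 allows, would be 0.0541 and 0.0375 TPM. Sdc1, the plasma cell surface marker CD138, had 0 and 13 counts and at most 0.06 TPM. By reads, 9 of the 16 plasma cell genes held at least 10 counts in both libraries, against 23.4% of all genes. In all, 4 of the 16 were detected, against 14.6% of protein-coding genes, and the median of the list was 0.15 and 0.12 TPM. Beside Jchain they were Sec11c, a subunit of the signal peptidase, at 7.02 and 7.06 TPM, Xbp1, a transcription factor of secretory cells, at 3.27 and 4.36 TPM, and Ell2, an elongation factor that favours secreted heavy chain RNA in plasma cells, at 2.73 and 3.91 TPM. These 3 genes are also expressed in other cell types. The near-equal TPM of Sec11c rests on effective lengths of 661 and 461 bases, with 334 and 345 counts. The plasma cell transcription factors Irf4 and Prdm1 had 6 and 1 counts and 4 and 22 counts, and Tnfrsf17, the receptor BCMA, had 0.

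Few B cell genes reached 1 TPM, as was so for all genes. Of the 15 mature B cell genes 1 was detected, the leukocyte tetraspanin Cd37, at 1.86 and 2.61 TPM from 85 and 217 counts. The detected share was 8.12% over all genes and 14.6% over protein-coding genes. By reads, 4 of the 15 held at least 10 counts in both libraries, against 23.4% of all genes. Cd79b and Cd79a, the signalling partners of the membrane antibody, stood at 0.51 and 0.84 TPM and at 0.04 and 0.05 TPM. The inhibitory receptor Cd22 had 7 and 49.9 counts; its 0.03 and 1.03 TPM rest on effective lengths of 3468 and 458 bases. The transcription factor Ebf1 had 0 counts in both libraries, and Pax5, the transcription factor of B cell identity, had 1 and 0. The list summed to 2.99 and 4.73 TPM and its median was 0.03 and 0 TPM, against 0 TPM in both libraries over all genes. None of the 12 B cell precursor genes was detected, and they summed to 0.97 and 1.13 TPM. Of these 12 genes, 4 held at least 10 counts in both libraries. The highest precursor gene, Cd93, which other blood cells also express, stood at 0.68 and 0.47 TPM from 319 and 322 counts. Vpreb1, Vpreb2, Vpreb3 and Igll1, surrogate light chain genes and a related gene of precursor B cells, had 0 counts in both libraries.

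**Figure D5:**
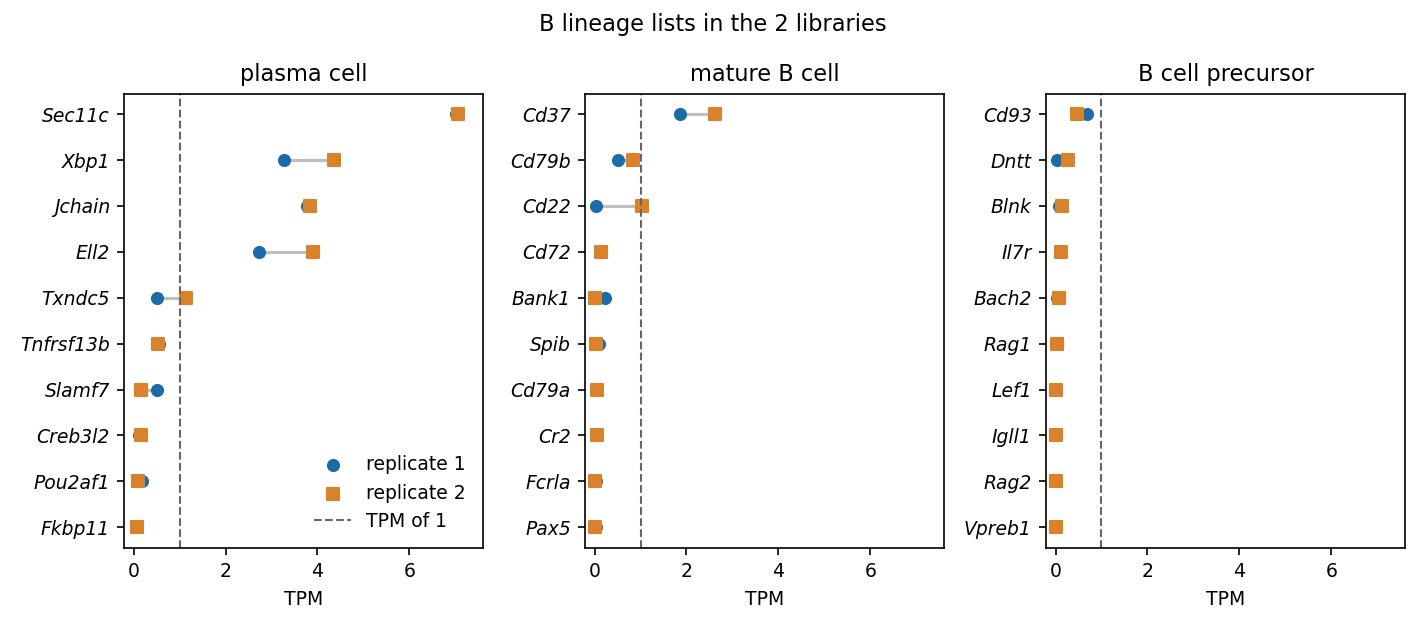
TPM of the 10 genes with the highest mean of the plasma cell, mature B cell and B cell precursor lists in both libraries, sorted by mean, with a dashed line at 1 TPM. In both libraries 4 plasma cell genes and 1 mature B cell gene pass the line, and no precursor gene does; over all protein-coding genes 14.6% do.

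Other antigen receptor and immunoglobulin rows set the background. The 77 annotated V pseudogenes held 0 and 1 counts in all. The rows of D and J segments had an effective length of 0 and so could hold no count. The 7 T cell receptor constant genes of the tables summed to 7 and 46 counts, the larger part from Trbc2, the second beta constant gene, with 0 and 45.0 counts; Trac, the alpha constant gene, had 6 and 0 counts. The 132 T cell receptor V genes held 4 and 0 counts, against 1510 and 2238 for the 213 immunoglobulin V genes.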

How the data were processed

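Total RNA-seq of 2 erythroblast libraries of 1 group was used. Per the deposited read-me, genes and transcripts were quantified from a transcriptome alignment on mm10 with GENCODE M4; an aligner or quantifier was not given in the sources used here. Expected counts, as deposited, share out reads that match several rows and need not be whole. The TPM values deposited by the authors are scaled over all rows, mitochondrial rRNA and spike-ins included. Per the file headers, the posterior mean TPM, the posterior SD of a count and the bounds of the TPM interval (used as scores) and the percent of a gene's TPM per transcript were deposited too.

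Gene types, symbols, coordinates and sequences came from GENCODE M21 (same build), matched by Ensembl identifier. The members and gene lists were chosen with earlier results of these data known. Shares and ratios were taken within a library; expected counts were rounded for edgeR 4.0.16 (TMM factors 0.962 and 1.04, 10012 genes kept) and, as an alternative, DESeq2 1.42.0 size factors. A ratio of libraries for single genes used a prior count of 0.5. The ratio step was tested on simulated data with little spread between libraries, which checks the code and not the ratios given here. Exact binomial 95% intervals came from scipy 1.17.1, and identities between V genes from Biopython 1.88 alignments of the last 250 bases. Replicates are separate samples per the labels, so an SD measures the spread between these libraries, which may be technical.

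Named genes were all constant genes, the 10 highest Ighv and Igkv genes by mean TPM, all lambda V genes, the 3 V genes with the largest ratio in each direction (mean of at least 20 counts), and from the plasma cell, mature B cell, precursor and T cell receptor lists up to 4 highest and 2 lowest genes with Jchain, Mzb1 and Sdc1. V genes with 0 counts in 1 library, families and genes of other lists were named after their values were seen. Of the 7 listed T cell receptor constant genes, 3 were matched by symbol. Some genes of the lists are counted in them but not reported singly here.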

Additional observations from a re-analysis of the deposited data

How the results depend on the processing

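Of 46 alternative values of 16 results, 26 stayed within the spread between the libraries (or, for counts of genes, within 1.5 times), 15 moved further and 5 turned sign. With 2 libraries, leaving out one gives the value of the other (28 values of 14 results), so this says nothing about stability. No paired analysis was possible because the 2 libraries form 1 group. Expected counts with no length correction gave a kappa share of light constant of 94.5%, an Ighm share of 41.3%, an Ighg share of 50.9%, a secreted share of Ighm of 61.9%, and log2 ratios of -1.34 for light over heavy constant, 0.0792 for kappa V over Igkc and -3.27 for heavy V over heavy constant. Counts per annotated length gave 0.58 and -1.44 for light over heavy constant and for heavy V over heavy constant. Posterior mean TPM gave a V sum of 121 TPM, log2 ratios of 0.0206 for kappa V over Igkc and -0.16 for heavy V over heavy constant (0.15 and -0.46 in the 2 libraries), and shares of V TPM of 42.9% for the 10 highest genes, 27.4% for heavy and 69.9% for kappa. By its construction that estimate gives rows without reads a value above 0: the 153 V genes with 0 counts in both libraries summed to 21.7 and 9.51 TPM by it. Of these sums 1 row, Ighv1-62-1, gave 9.12 TPM in replicate 1 and 0.05 TPM in replicate 2. The posterior values of V genes in replicate 1 thus depend in part on that row. Keeping only V genes with at least 10 counts in both libraries gave a V sum of 91.2 TPM, a threshold of 2 TPM left 13 V genes detected in both, and a minimum mean of 5 counts put 22 of 44 V genes over 2 times apart. The log2 ratio of the libraries was 0.0486 by library total and 0.19 by deposited TPM. The V over constant ratios and their alternatives were chosen after seeing the data. Depth limits single V genes: 26 of the 213 had a mean of at least 20 counts.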

Other observations

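Some receptors that bind antibodies were detected. Fcer1g, the signalling chain shared by several Fc receptors, stood at 13.5 and 14.0 TPM, Fcgr3 at 6.98 and 5.23 TPM and the inhibitory receptor Fcgr2b at 2.08 and 1.98 TPM, and these were the 3 of 10 listed receptor and transport genes detected in both libraries. Pigr, the polymeric immunoglobulin receptor, and the IgM receptors Fcamr and Fcmr had 0 counts in both, and Fcgrt, which carries IgG across cells, had 11 and 61 counts (0.10 and 0.36 TPM). Of the 5 class switch and hypermutation genes, Apex2 was detected in both libraries, at 1.57 and 1.38 TPM. Over all protein-coding genes 14.6% were detected, beside the 3 of 10 and 1 of 5 here.

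Lists of other blood cells were detected at 3 of 4 basophil genes (summed level 25.9 and 26.2 TPM), 6 of 7 macrophage genes (15.6 and 17.6 TPM) and 1 of 8 T and NK cell genes (6.57 and 6.99 TPM, of which Nkg7 gave 5.07 and 6.45 TPM). The detected share of protein-coding genes was 14.6%. In the same libraries the 223 immunoglobulin genes summed to 212 and 242 TPM, and the 8 neutrophil genes to 2006 and 2310 TPM. These sets differ in size and choice of genes, so their sums do not compare amounts of cells.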
